A study of Homo sapiens with 15 samples.

Results

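Promoter-promoter loops are chromatin loops in which both ends lie on the start of a protein-coding gene. They were taken here from the loops called by HiChIP in LNCaP, a line of prostate cancer cells that responds to androgen. In HiChIP, DNA ends that lie close together in fixed nuclei are ligated, and fragments carrying a chosen histone mark are pulled down and sequenced as read pairs. A loop was kept where its length was at least 10000 bp and below 1000000 bp and where its 1000 bp anchors touched the windows of 2 different coding genes, a window being 2500 bp on either side of the start of the canonical transcript on hg19. This left 40320 promoter-promoter loops of 505995 different loops, or 8.83% of the 456826 loops within that length range, whereas 241539 loops had a coding promoter at 1 end alone (promoter-other) and 174967 at neither (other-other). At the lower limit of length, 473 loops of 10000 bp were inside and 766 of 5000 bp outside, with mean H3K27ac contacts of 11.1 and 19.5. At the upper limit 45 loops that were 1 bin shorter than 1000000 bp were inside and 39 loops of 1000000 bp outside, with mean H3K27ac contacts of 0.187 and 0.290.

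All cells were kept for 3 days in phenol red-free RPMI with charcoal-stripped serum, which is poor in steroids, and then received ethanol vehicle (0 m) or the androgen dihydrotestosterone (DHT) at 10 nM. DHT was given for 30 m or 4 h, and for longer times of 16 h and 72 h. The labels name 10 H3K27ac samples, 2 for each time point, and 5 H3K4me3 samples, 1 for each. Each deposited table gives a loop a single value for its mark and time, here called a library, so that no value has a replicate error. Whether both H3K27ac samples entered a value is not given in the sources used here. All 12 luminal prostate marker genes had loops, with a median of 42 loops and a summed H3K27ac contact of 42.3 to 299.7, against 5 of 12 markers of basal prostate and other cell types, whose summed contact was 0 to 27.1. Those with no loop included TP63, KRT5, KRT14, PTPRC, INS and MYH6, while COL1A1, VIM, CD3E, KRT15 and ALB had 2 to 17.

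A promoter is the stretch around a gene start on which RNA polymerase and general factors assemble. Active promoters carry H3K4me3, and H3K27ac marks active promoters and enhancers alike. Promoters of different genes are known to meet within the nucleus, often where many active genes lie close together, while the androgen receptor acts largely from enhancers at a distance.

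A few promoters show the range of these loops, and the 250 bases before each start are printed from the GRCh37 sequence, the build that hg19 names, 5′ to 3′ on the strand of the gene. Capitals mark letters that match one of the searched motifs on either strand, which include the SP/KLF motif GGGCGG, the NFY motif CCAAT, the ETS motif CCGGAAG, the box of letters TATAAA and the longer motif of ZNF143. HEXIM1 and HEXIM2 form one of the strongest loops, a short one of 10 kb between 2 inhibitors of the elongation factor P-TEFb, at chr17:43225592-43225841 and chr17:43238992-43239241, both on the plus strand.
HEXIM1: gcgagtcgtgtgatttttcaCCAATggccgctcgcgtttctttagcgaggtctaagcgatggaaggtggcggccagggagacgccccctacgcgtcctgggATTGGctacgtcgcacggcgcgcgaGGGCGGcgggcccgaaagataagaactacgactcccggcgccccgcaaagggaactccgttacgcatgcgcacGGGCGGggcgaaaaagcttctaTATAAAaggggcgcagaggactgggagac
HEXIM2: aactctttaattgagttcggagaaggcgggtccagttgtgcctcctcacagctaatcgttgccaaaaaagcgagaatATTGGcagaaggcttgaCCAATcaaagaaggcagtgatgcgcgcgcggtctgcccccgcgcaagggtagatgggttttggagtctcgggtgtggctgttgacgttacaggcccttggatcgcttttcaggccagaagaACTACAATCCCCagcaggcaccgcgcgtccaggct
ZNF530 and ZNF134 encode C2H2 zinc finger proteins of a chromosome 19 gene cluster, at chr19:58111003-58111252 and chr19:58125360-58125609 on the plus strand, and their loop was among those most biased to H3K4me3.
ZNF530: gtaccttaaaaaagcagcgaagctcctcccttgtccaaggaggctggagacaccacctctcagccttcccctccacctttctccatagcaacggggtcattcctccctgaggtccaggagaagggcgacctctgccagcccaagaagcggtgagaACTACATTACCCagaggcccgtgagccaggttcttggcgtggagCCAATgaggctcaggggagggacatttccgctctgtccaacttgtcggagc
ZNF134: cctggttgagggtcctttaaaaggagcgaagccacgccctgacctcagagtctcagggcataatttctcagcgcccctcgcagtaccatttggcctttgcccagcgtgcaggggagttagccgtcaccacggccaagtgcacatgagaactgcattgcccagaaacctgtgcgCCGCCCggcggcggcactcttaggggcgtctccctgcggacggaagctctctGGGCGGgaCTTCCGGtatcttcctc
No motif occurred in all 4 stretches. CCAAT stood in HEXIM1, HEXIM2 and ZNF530, GGGCGG in HEXIM1 and ZNF134, CCGGAAG in ZNF134 alone, and the ZNF143 motif in HEXIM2 and ZNF530. HEXIM2 was the poorest in G and C, at 55.2%, and HEXIM1 the richest, at 62.4%.

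Contact is given in read pairs, scaled by the authors between the libraries of each mark, and values are listed in the order of time from 0 m to 72 h. HEXIM1-HEXIM2 had H3K27ac contacts of 48.5, 66.2, 40.6, 122 and 95, while its H3K4me3 contacts were 36.7, 33.5, 64.5, 35 and 22.3. H3K27ac contact was thus highest at 16 h and H3K4me3 contact at 4 h. On the log2 scale the 16 h value was 1.33 above 0 m in H3K27ac (95% interval 1.08 to 1.59), and in H3K4me3 the 4 h value was 0.81 above it (0.55 to 1.09). ZNF530-ZNF134 had H3K27ac contacts of 2.94, 5.4, 4.7, 3.61 and 3.42, against 26.2, 28, 26.1, 26.9 and 23.6 in H3K4me3, so that the marks did not overlap. NDUFB4, a subunit of respiratory complex I, was joined to HGD, an enzyme of tyrosine breakdown, by the loop most biased to H3K27ac. NDUFB4-HGD had 20.9, 9.18, 10.5, 16.3 and 18.7 in H3K27ac over 90 kb and at most 1.69 in H3K4me3. Its H3K27ac contact was lowest at 30 m, 1.18 below 0 m on the log2 scale (interval -1.73 to -0.65), and was back within the counting error of 0 m at 72 h (-0.16, interval -0.65 to 0.34). A loop of 85 kb between the same promoters was also lowest at 30 m, at 6.48 against 16.5 at 0 m. All intervals come from exact ratios of read pairs, cover counting error alone and hold for these libraries, not for the conditions. Reads of near-identical copies in the zinc finger, kallikrein, histone and protocadherin clusters may be lost where they do not map uniquely, so values of single loops in them are uncertain.

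**Figure D1:**
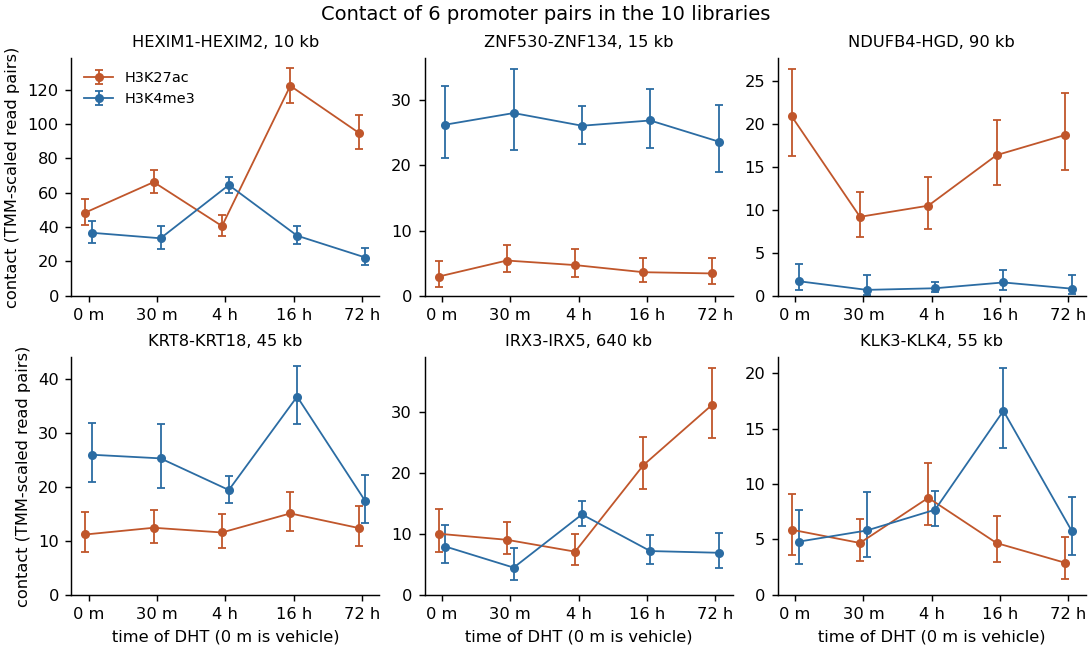
Contact (TMM-scaled read pairs, vertical axis) of 6 promoter pairs at each time of DHT (horizontal axis, not to scale) in H3K27ac and H3K4me3, with bars for 95% counting intervals. ZNF530-ZNF134 and NDUFB4-HGD keep the marks apart at all 5 times, and HEXIM1-HEXIM2 and IRX3-IRX5 are highest in H3K27ac at 16 h and 72 h.

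The genes joined by promoter-promoter loops were counted first. The loops used 14649 of 19894 coding genes (73.6%), and 90.1% of the genes with any loop had at least 1 of them. A gene had a median of 5 partner genes (quartiles 2 and 10), 2090 genes had a single partner and 1073 had 20 or more. FAM89B and ZNRD2 on chromosome 11 had the most, 52 each, from starts that lie within 1 promoter window and so share their loops. Then came the chromosome 19 zinc finger genes ZNF549 (51 partners), ZNF211 and ZNF530 (48 each), ZNF749 (47) and ZNF606 (46), with ERVK3-1 (48) among them, and MAP3K11 and PCNX3 of chromosome 11 (47 each). EIF4A1, a translation initiation helicase, had 45 partners. Chromosome 19 held 6265 of these loops (15.5%), or 4.26 per coding gene, and 27.6% of its loops in range joined 2 promoters. On chromosome 13 this was 2.88% and on chromosome 18 2.94%, the lowest of the other autosomes. A median length of 230000 bp (quartiles 100000 and 440000 bp) compared with 180000 bp for all loops in range.

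Pairs of genes were next described by direction. Of the 26529 pairs joined by loops with 1 gene at each anchor, 25.4% were divergent, 23.6% convergent and 51.0% tandem, against 24.4%, 24.7% and 50.9% of the 289659 pairs of coding starts that lie 10000 to 1000000 bp apart. Neighbouring genes made up 19.3% of joined pairs and 5.59% of possible pairs. These shares are not matched for distance, as the median distance was 226501 bp for joined pairs and 452798 bp for possible pairs. A median of 3 and 9 other starts lay between them. Possible pairs were also not limited to starts that stand alone at an anchor. The share of possible pairs that had a loop was close to equal up to 50 kb and lower in each class beyond. Between 10 and 20 kb, 40.4% of possible pairs had a loop, and this share was 47.0% for divergent, 45.5% for convergent and 36.0% for tandem pairs. At 20 to 50 kb it was 41.4% and at 500 to 1000 kb 8.84%, where the 3 directions lay between 8.72% and 9.13%. Gene pairs share promoters, so these shares were not tested.

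**Figure D2:**
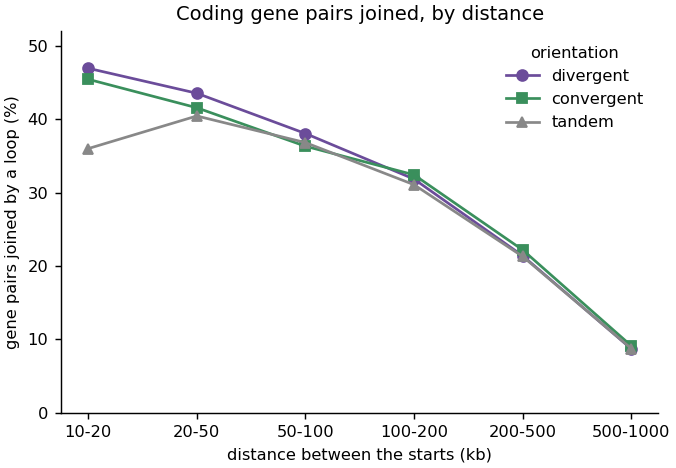
Share of coding gene pairs joined by a loop (%, vertical axis) against the distance between their starts (kb classes, horizontal axis) for divergent, convergent and tandem pairs. The directions lie furthest apart at 10 to 20 kb, with tandem pairs at 36.0% and divergent pairs at 47.0%, and come to 8.72% to 9.13% at 500 to 1000 kb.

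The share of loops that join 2 promoters was then compared between the loop sets of the marks. Of loops called in H3K27ac alone 2.98% joined 2 promoters (6065 loops), of those called in both marks 20.3% (12849) and of those called in H3K4me3 alone 11.3% (21406). Most promoter-promoter loops, 53.1%, were thus called in H3K4me3 alone. Loops called in H3K4me3 alone were also the longest, with a median of 295000 bp against 170000 bp for those of both sets. All loops in range had the same order, with medians of 250000 bp and 150000 bp. Measured by read pairs, promoter-promoter loops took 9.23%, 12.1%, 9.205%, 11.0% and 11.1% of those on loops in range in the H3K27ac libraries from 0 m to 72 h, and 18.2%, 18.2%, 19.6%, 17.5% and 15.9% in H3K4me3. The highest H3K27ac library stayed below the lowest H3K4me3 library. Means were 10.5% ± 1.29 (SD, n = 5 libraries) and 17.9% ± 1.33 (SD, n = 5), and the difference of 7.35 percentage points gave p = 0.00794 in a two-sided exact permutation test, the smallest 5 against 5 libraries allow. With time points taken as pairs the exact sign-flip test gave p = 0.0625, again the smallest possible. Within loops of the H3K4me3 set the difference was 3.17 points (exact permutation p = 0.0159) and within the H3K27ac set 10.7 points (exact p = 0.00794). Over all loops in range, promoter-other loops also had the larger mean share in H3K4me3, 68.2% against 44.9% (23.4 points, exact permutation p = 0.00794). Other-other loops took 13.9% in H3K4me3 against 44.6% in H3K27ac (-30.7 points, exact permutation p = 0.00794). The higher share in H3K4me3 was thus not particular to promoter-promoter loops. The p-values cover the spread over time points, since libraries of a mark are not replicates of one condition.

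**Figure D3:**
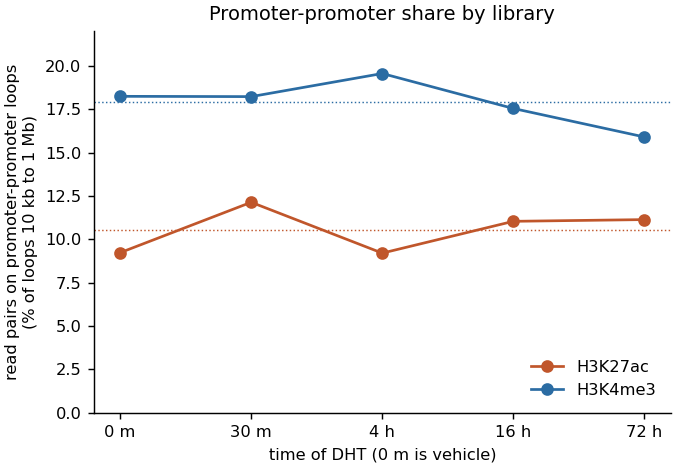
Share of read pairs on loops of 10 kb to 1 Mb that fell on promoter-promoter loops (%, vertical axis) by time of DHT (horizontal axis), with 1 point per library and dotted lines for the mean of each mark. H3K27ac libraries lie between 9.205% and 12.1% and H3K4me3 libraries between 15.9% and 19.6%.

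Contact falls with distance, so the contact of promoter-promoter loops was compared with other loops inside classes of length. It exceeded that of promoter-other loops by 0.58 ± 0.12 (log2, SD, n = 5 libraries) in H3K27ac and by 0.72 ± 0.11 (SD, n = 5) in H3K4me3. These are means in which each length class has equal weight. The excess was 0.95 and 1.09 in the shortest class and 0.25 and 0.22 in the longest. Averaged over classes, contact was above that of promoter-other loops in all 10 libraries. The two-sided exact sign-flip test gave p = 0.00195 over both marks and p = 0.0625 for either alone, the smallest values possible. The test over both marks takes the 10 libraries as independent, though the marks share their time points and all libraries hold the same loops. None of these p-values covers replicates of a condition. Against other-other loops the difference was 2.84 ± 0.26 (SD, n = 5) in H3K4me3. In H3K27ac it was 0.37 ± 0.32 (SD, n = 5), and it ran from -0.68 to 1.35 between length classes. This difference was 0.23 without the strongest 1% of loops (exact sign-flip p = 0.25) and 0.26 by median contact (exact p = 0.188).

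The loops with the highest contact were short. A loop on the mitochondrial genome headed both marks, between MT-ND1 and MT-ND2 at 1 end and MT-CYB and its neighbours at the other, with 211 to 351 in H3K27ac and 46.1 to 155 in H3K4me3. Mitochondrial DNA carries no histones, and the log2 changes of all promoter-promoter loops given below moved by less than 0.01 without this loop. Next in H3K27ac were HEXIM1-HEXIM2, EME2/MRPS34/NME3-NUBP2/SPSB3 (46.7 to 75.6), ACADVL/DLG4-DVL2 (34.7 to 63.4) and HDGF-PRCC (28.5 to 60.9). In H3K4me3 the EME2/MRPS34/NME3-NUBP2/SPSB3 loop spanned 73.1 to 138, TRIM28-CHMP2A/UBE2M 61.8 to 107, P4HB-ARHGDIA 49.5 to 81.4 and ALDOA-PPP4C 44 to 79.9. TRIM28 is the corepressor recruited by KRAB zinc finger proteins, P4HB a protein disulfide isomerase and ALDOA a glycolytic aldolase.

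From 20 kb on, H3K27ac contact was highest for MAFK-TMEM184A, CYB5D1/NAA38-CHD3 and SH2D6-MAT2A. CYB5D1/NAA38-CHD3, where CHD3 is a chromatin remodeller, had 39.1, 43.4, 33.1, 45.2 and 29.5 in H3K27ac and 16.6, 14, 24.6, 18.9 and 16.2 in H3K4me3. SH2D6-MAT2A, over 120 kb to the gene of the enzyme that makes S-adenosylmethionine, had 32.9, 34.7, 26.9, 41.6 and 29.7 in H3K27ac and 17 to 30.4 in H3K4me3. Of the 10 such loops, 3 met at PHF12, from TLCD1 at 225 kb, TRAF4 at 205 kb and DHRS13/FLOT2 at 50 kb. In H3K4me3 the list held SLC35E1-ENSG00000141979/MED26 (32.7 to 58.8), where MED26 is a subunit of Mediator, AP4B1/DCLRE1B-HIPK1 (30.2 to 64.8), SCAF1-BCL2L12/IRF3 (37.9 to 62.9) and BET1L/RIC8A-PSMD13/SIRT3 (34.4 to 52). The CDK4/MARCHF9-EEF1AKMT3/ENSG00000257921/METTL1 loop, with the gene of the cell cycle kinase CDK4, was in that list too, at 42.9, 37.2, 68.5, 36 and 23.1 in H3K4me3 and 8.52, 26.3, 7.91, 19.3 and 20.3 in H3K27ac.

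Over 500 kb or more, IRX3-IRX5 had the highest H3K27ac contact, with 640 kb between these homeobox genes. Its H3K27ac contact was 9.99, 9, 7.05, 21.2 and 31.1 from 0 m to 72 h, and its H3K4me3 contact 7.9, 4.44, 13.2, 7.15 and 6.87. The H3K27ac libraries of 16 h and 72 h stood above the other 3, by 1.09 (0.51 to 1.69) and 1.64 (1.07 to 2.23) on the log2 scale against 0 m. JUN-FGGY, from the gene of an AP-1 subunit over 515 kb, had 5, 7.38, 5.77, 11 and 13.2 in H3K27ac and 5.64, 5.47, 10.5, 6.38 and 9.35 in H3K4me3. It too was highest at 72 h in H3K27ac (log2 change 1.40, 0.58 to 2.28). The ENSG00000269825-ZNF525 loop of 675 kb had the highest H3K4me3 contact at this length, 19 to 32.8, with 2.35 to 5.73 in H3K27ac. MAPKAPK3-MANF (765 kb), LSG1-XXYLT1 (600 kb), ANO6-ARID2 (510 and 515 kb) and a histone pair, H2AC12/H2BC12-H2AC13/H2BC13/H3C10 (665 kb), completed the list, with contacts no higher than 12.2.

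Which loops differed between the marks was tested with limma over all 167443 loops with at least 50 read pairs in the 10 libraries, 18994 of them promoter-promoter, with the time point in the model. Scaled to the looped read pairs of each library, 11573 promoter-promoter loops (60.9%) were higher in H3K4me3 and 343 (1.81%) in H3K27ac at a Benjamini-Hochberg adjusted p below 0.05, where the background over all loops was 39.3% and 28.2%. Their median log2 difference of H3K4me3 over H3K27ac was 0.73, against 0.32 over all loops. edgeR called 7841 and 560 of them, with a background over all loops of 26.6% and 31.4%, so that by edgeR more of all loops were higher in H3K27ac. H3K4me3 pull-down favours promoters, and the loops themselves were called on these reads, so the sets were also read apart. Among loops called in both marks 57.7% of promoter-promoter and 44.6% of promoter-other loops were higher in H3K4me3, among those of H3K27ac alone 41.5% and 37.6%, and among those of H3K4me3 alone 77.1% and 73.6%. In each of 5 classes of the G and C content of the bins the share was higher for promoter-promoter loops, from 56.1% against 47.9% in the richest to 63.3% against 58.4% in the poorest.

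Of the 10 loops with the smallest adjusted p in the direction of H3K4me3, 5 joined zinc finger genes of chromosome 19 to each other. ZIK1-ZNF530 led in size, with 0.882, 3.42, 2.56, 1.27 and 1.32 in H3K27ac and 19.5, 18.1, 14.3, 21.8 and 15.4 in H3K4me3 (log2 difference 2.93, SE 0.24, limma adjusted p = 2.54e-13). ZNF530-ZNF134 (2.58), ZNF530-ZNF211 (2.80), ZNF350-ZNF615 (2.58) and ZNF17-ZNF749 (2.48) were the others. ENSG00000269825-ZNF525 (2.51) involved 1 more zinc finger gene, and the remaining 4 were ADIPOR1-CYB5R1 (2.35), with an adiponectin receptor gene, COPE/DDX49-HOMER3 (2.55), NOP56-IDH3B (2.48), with genes of a nucleolar protein and a citric acid cycle enzyme, and MCOLN1-ENSG00000268614 (2.35). In none of them did a library of one mark reach the range of the other.

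Of the loops higher in H3K27ac, NDUFB4-HGD was the most extreme (log2 difference -2.98, SE 0.24, limma adjusted p = 4.45e-14), with its second loop at -1.89. IL36B-IL1F10, a pair of interleukin-1 family genes, had 9.4, 5.94, 10, 6.16 and 3.16 in H3K27ac and 0.275 to 1.02 in H3K4me3 (-2.44). IL17RE-ENSG00000288550/IL17RC, with a pair of interleukin-17 receptor genes, had 9.11, 12.1, 12.4, 16.8 and 17.1 in H3K27ac and 1.13 to 2.47 in H3K4me3 (-2.37). The other 6 were SLC26A1-FGFRL1 (-1.98), HOXA6-HOXA7 (-1.94), NAT8-NAT8B (-1.88), ZMYND8-NCOA3 (-1.88), in which NCOA3 encodes a nuclear receptor coactivator, PRAC1-TTLL6 (-1.62) next to the HOXB cluster, and SPATA20-ANKRD40 (-1.61). HOX genes as a list had 10 loops higher in H3K27ac and 5 higher in H3K4me3 of 38 tested (26.3% and 13.2%), against 1.81% and 60.9% of all promoter-promoter loops and 28.2% and 39.3% of all loops. ZNF genes had 14 and 1126 of 1655 (0.846% and 68.0%). The lists were written by hand and share loops with one another.

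Change with DHT was followed as the mean contact of all promoter-promoter loops against 0 m. In H3K27ac the log2 change was 0.40 (95% interval 0.39 to 0.41) after 30 m, -0.03 (-0.04 to -0.02) after 4 h, and 0.27 (0.26 to 0.28) for both later times. In H3K4me3 it was -0.0039 (-0.01 to 0.0033), 0.28 (0.27 to 0.29), 0.03 (0.02 to 0.04) and -0.28 (-0.29 to -0.27) in the same order. These are changes of summed contact. The median log2 change of single loops was 0.12, 0, 0.0042 and 0 in H3K27ac, with 59.3%, 44.3%, 50.05% and 48.4% of loops higher than at 0 m. In H3K4me3 the median was 0, 0.20, 0.025 and -0.026, with 49.6%, 67.4%, 53.7% and 35.6% of loops higher. At 72 h the summed contact of the marks had opposite signs. Promoter-other loops had 0.16, -0.04, 0.07 and 0.09 in H3K27ac and 0.03, 0.20, 0.09 and -0.06 in H3K4me3, and other-other loops -0.26, -0.01, -0.10 and -0.14 and then -0.18, -0.06, 0.16 and 0.07. Promoter-promoter loops were thus highest of the 3 classes at 30 m, 16 h and 72 h in H3K27ac and at 4 h in H3K4me3, and lowest at 16 h and 72 h in H3K4me3, though within classes of base composition the 16 h order in H3K4me3 turned. These are single libraries without replicates, and the differences between classes and between marks were not tested. All loops of any length moved by 0.09, 0.07, 0.25 and 0.17 in H3K27ac and by 0.02, 0.22, 0.14 and -0.13 in H3K4me3. With libraries set to equal looped totals, promoter-promoter loops had 0.31, -0.09, 0.02 and 0.10 in H3K27ac and -0.03, 0.06, -0.11 and -0.15 in H3K4me3, so the 16 h value of H3K4me3 turned sign.

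**Figure D4:**
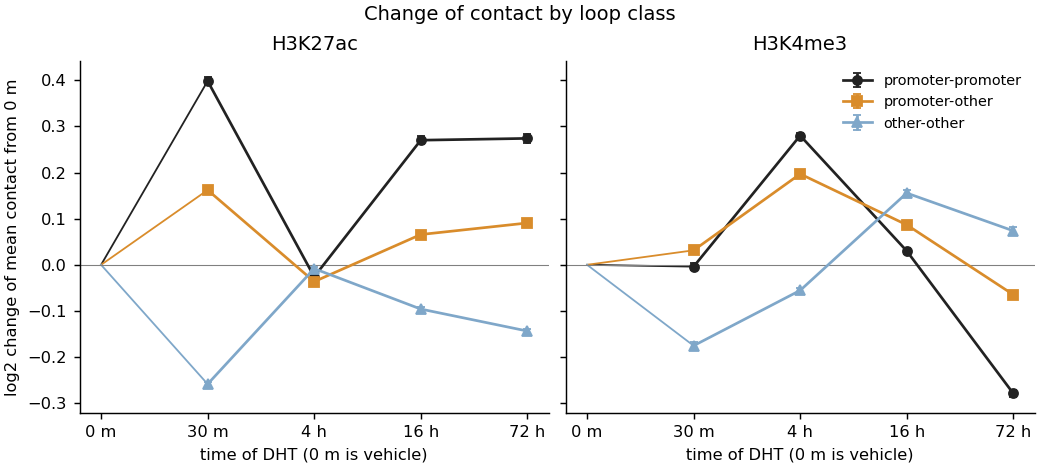
Log2 change of mean contact from 0 m (vertical axis) by time of DHT (horizontal axis) for promoter-promoter, promoter-other and other-other loops in the H3K27ac libraries (left) and the H3K4me3 libraries (right), with bars for 95% counting intervals, most of them smaller than the symbols. Promoter-promoter loops reach 0.40 in H3K27ac at 30 m and -0.28 in H3K4me3 at 72 h, further from 0 than promoter-other loops.

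These changes differed between loops whose bins differ in base composition. Both 5 kb bins of a promoter-promoter loop had a median G and C content of 51.2%, against 45.9% for promoter-other and 42.6% for other-other loops. In H3K27ac at 30 m promoter-promoter loops had a log2 change of -0.31 below 40%, 0.04 at 40 to 45%, 0.33 at 45 to 50%, 0.45 at 50 to 55% and 0.49 from 55% on, and promoter-other loops -0.31, -0.01, 0.21, 0.33 and 0.35. In H3K4me3 at 72 h promoter-promoter loops had 0.10, -0.09, -0.18, -0.31 and -0.39 in the same classes. Within classes, promoter-promoter loops exceeded promoter-other loops by 0.12 in H3K27ac at 30 m instead of 0.24, and lay below them by 0.12 instead of 0.21 in H3K4me3 at 72 h. At 16 h and 72 h in H3K27ac the difference was 0.19 and 0.20 within classes, near the 0.20 and 0.18 without them, and in H3K4me3 at 4 h it was 0.14 instead of 0.08. The sign turned at the remaining times, from 0.01 to -0.04 in H3K27ac at 4 h and, in H3K4me3, from -0.04 to 0.04 at 30 m and from -0.06 to 0.02 at 16 h. Against other-other loops the H3K4me3 difference at 16 h also turned, from -0.13 to 0.01. The part of base composition in the changes was not tested.

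Length and strength were also read. In H3K27ac at 30 m the change was 0.50 at 10 to 20 kb and 0.25 at 500 to 1000 kb, while loops in range that do not join 2 promoters went from 0.15 to -0.32. In H3K4me3 at 4 h it was 0.15 in the shortest and 0.56 in the longest class, and in H3K4me3 at 72 h -0.42 and -0.07. When loops were put into 5 classes by their contact in the other mark, the H3K27ac change at 30 m was 0.15 in the weakest class and 0.47 in the strongest, and the H3K4me3 change at 72 h 0.01 and -0.36.

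Single loops were counted where 0 m and the later time held at least 20 read pairs together. In H3K27ac at 30 m 1216 of 6248 such promoter-promoter loops (19.5%) were at least 2-fold higher, against 10.7% of all loops, and 73 (1.17%) at least 2-fold lower, against 6.02%. At 4 h the counts were 179 and 150 of 4395 (backgrounds 7.02% and 3.02%), or 4.07% and 3.41%, where loops of the same length range gave 5.54% and 4.41%. At 16 h 1068 of 5165 (20.7%) were higher and 183 (3.54%) lower, against 18.3% and 5.9%. At 72 h 802 of 4439 (18.1%) were higher and 158 (3.56%) lower, against 15.4% and 6.61%. Over loops with at least 50 read pairs the order against all loops turned for the higher ones, with 20.8% against 26.1% at 16 h and 16.7% against 19.9% at 72 h. H3K4me3 gave at 30 m 233 higher and 264 lower of 8080 (backgrounds 3.15% and 3.79%), at 4 h 3702 and 380 of 20670 (15.2% and 3.36%), at 16 h 560 and 274 of 11131 (6.5% and 2.21%, and 2.58% lower in the same length range) and at 72 h 118 and 701 of 8324 (2.4% and 5.86%). With equal looped totals the H3K27ac counts were 663 higher and 357 lower at 16 h (backgrounds 11.5% and 10.2%) and 556 and 248 at 72 h (10.8% and 9.47%). The H3K4me3 counts were then 2685 and 798 at 4 h (11% and 6.44%), 360 and 460 at 16 h (4.1% and 3.6%) and 176 and 464 at 72 h (3.46% and 3.9%). H3K4me3 at 4 h held 10675614 looped read pairs, and the other H3K4me3 libraries 2153262 to 4115072, so that more loops reached 20 read pairs at 4 h.

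A change shared by both marks was tested with limma, with mark and time in the model, so that the marks served as the only repeats of a time point. No loop passed an adjusted p of 0.05 at any time (0% of 167443), and edgeR called none. At an unadjusted p below 0.05 stood 884 promoter-promoter loops after 30 m (4.65% of 18994, against 4.49% of all loops), 622 after 4 h (3.27%, against 2.93%), 903 after 16 h (4.75%, against 5.95%) and 988 after 72 h (5.202%, against 5.68%). Over loops with at least 50 read pairs in both comparisons of a time point, the changes of the marks had a Pearson r of 0.03 over 1440 loops for 30 m, -0.16 over 1043 for 4 h, 0.09 over 1259 for 16 h and 0.08 over 935 for 72 h. Loops of a mark share its 0 m library, and no p is given.

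Loops with the largest changes of at least 50 read pairs are named by mark. SMPD1-TRIM3, with the acid sphingomyelinase gene, had 0.588, 5.94, 3.63, 12.5 and 11.6 in H3K27ac and 6.2, 4.44, 9.82, 7.15 and 3.3 in H3K4me3. Its H3K27ac log2 change at 16 h was 4.41 (2.50 to 7.49), from 2 read pairs at 0 m. DAGLB-KDELR2, the genes of a diacylglycerol lipase and an endoplasmic reticulum retention receptor, had 2.64, 11.9, 6.2, 15.1 and 14.7 in H3K27ac and 14.4, 22.2, 30.2, 19.3 and 12.9 in H3K4me3. All 4 DHT libraries of H3K27ac lay above 0 m, by 2.17 (1.16 to 3.36) at 30 m and 2.51 (1.51 to 3.70) at 16 h. ZNF28-ZNF468 had 1.76, 4.86, 2.99, 11.3 and 10.5 in H3K27ac and 33.6, 41.7, 34.8, 23.6 and 23.6 in H3K4me3. MT2A-MT1X, a pair of metallothionein genes, had 2.94, 7.38, 4.7, 12.5 and 10.3 in H3K27ac (2.09 at 16 h, 1.11 to 3.22) and 5.22 to 8.79 in H3K4me3. Lower contact was seen for NIPSNAP3A-NIPSNAP3B at 30 m in H3K27ac (10.3 to 2.88, log2 change -1.84, -2.79 to -0.95) and for HID1-MRPL58 at 16 h (10.3 to 3.61, -1.51, -2.44 to -0.64). In H3K4me3 the lowest at 72 h were TUFM-RABEP2, with the gene of the mitochondrial elongation factor Tu, at 14.9, 11.3, 10.3, 6.38 and 4.12 (-1.86, -2.79 to -1.01), and HRAS/LRRC56-LMNTD2/RASSF7 at 22.6, 12, 16.5, 11.8 and 6.87 (-1.72, -2.43 to -1.05).

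Genes of the androgen response were read as a list. Of its 99 annotated entries 84 had a promoter-promoter loop (84.8%, against 73.6% of all coding genes, but 88.4% of its genes with any loop against 90.1% of all such genes), 505 loops in all, and 4 of these had both ends in the list. The list had H3K27ac log2 changes of 0.36, -0.01, 0.41 and 0.34 and H3K4me3 log2 changes of 0.03, 0.34, 0.22 and -0.29, against 0.40, -0.03, 0.27 and 0.27 and -0.0039, 0.28, 0.03 and -0.28 for all promoter-promoter loops. At 16 h 13 of 60 were at least 2-fold higher in H3K27ac (21.7%) and 11 of 121 in H3K4me3 (9.09%), beside 20.7% and 5.03% of all promoter-promoter loops. Of 222 loops of the list in the mark test 112 (50.5%) were higher in H3K4me3 and 6 (2.70%) in H3K27ac, beside 60.9% and 1.81% of all promoter-promoter loops.

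KRT8 and KRT18 encode the keratin partners of luminal epithelium, and their loop was the strongest with both genes on the androgen response list. KRT8-KRT18 had H3K27ac contacts of 11.2, 12.4, 11.5, 15.1 and 12.4, against 25.9, 25.3, 19.4, 36.7 and 17.3 in H3K4me3. The H3K4me3 library of 16 h stood highest (log2 change 0.50, 0.13 to 0.88) and that of 72 h lowest (-0.58, -1.07 to -0.11), and the marks did not overlap (log2 difference 0.98, SE 0.21, limma adjusted p = 0.000114). FADS1-FADS2, a pair of fatty acid desaturase genes, had the highest H3K27ac contact of the list, 22, 47.9, 23.1, 39.9 and 27.9, with 40.3, 40.3, 59.4, 35.2 and 22 in H3K4me3. It was 1.12 higher at 30 m in H3K27ac (0.74 to 1.51) and 0.88 lower at 72 h in H3K4me3 (-1.29 to -0.47 as a change). MYL12A-MYL12B, a pair of myosin light chain genes, had 10.9, 12.8, 9.19, 22.3 and 24.7 in H3K27ac and 12.1 to 21.5 in H3K4me3. STEAP2-CFAP69, with the gene of a prostate metalloreductase, was higher in H3K27ac, at 13.5 to 20 against 7.05 to 9.56 (log2 difference -0.86, SE 0.22, limma adjusted p = 0.000746). RRP12-PGAM1 (3.82 to 12.6 in H3K27ac), APPBP2-PPM1D (2.35 to 8.28), CCND1-LTO1 with the cyclin D1 gene (4.47 to 9.54), GNAI3-AMPD2/GNAT2 (3.95 to 5.94), ENSG00000257411/PA2G4-RPL41 (12.4 to 17.6), PMM1-DESI1/XRCC6 (3.53 to 7.02) and CENPN/CMC2/ENSG00000286221-ATMIN (4.7 to 9.34) were also among the loops of highest contact, taking for each gene its strongest loop.

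KLK3, the gene of prostate-specific antigen, was joined to KLK4 over 55 kb, with 5.88, 4.68, 8.76, 4.67 and 2.89 in H3K27ac and 4.79, 5.81, 7.69, 16.6 and 5.77 in H3K4me3. H3K4me3 contact at 16 h exceeded the other 9 values, with a log2 change of 1.79 (1.03 to 2.64), whereas the H3K27ac change at that time was -0.33 (-1.27 to 0.62). The 36 promoter-promoter loops of the kallikrein genes, proteases in part induced by androgen, had log2 changes of 0.29 (-0.02 to 0.61), 0.61 (0.30 to 0.92), -0.05 (-0.39 to 0.29) and -0.40 (-0.78 to -0.02) in H3K27ac from 30 m to 72 h. In H3K4me3 their changes were -0.12 (-0.44 to 0.20), 0.21 (-0.02 to 0.44), 0.47 (0.22 to 0.73) and -0.21 (-0.51 to 0.10), and only 3 to 5 of these loops reached 20 read pairs in H3K27ac and 5 to 13 in H3K4me3. All promoter-promoter loops stood at -0.03 at 4 h and 0.27 at 72 h in H3K27ac and at 0.03 at 16 h in H3K4me3. Luminal prostate markers had 65 loops with a log2 change of 0.62 (0.44 to 0.80) in H3K4me3 at 16 h, when all promoter-promoter loops were at 0.03, and 5 of 13 of them were at least 2-fold higher (38.5%, beside 5.03% of all promoter-promoter loops and 6.5% of all loops). At 30 m, 4 h and 72 h the H3K4me3 changes of the markers were 0.07 (-0.15 to 0.29), 0.10 (-0.07 to 0.27) and -0.11 (-0.32 to 0.11), beside -0.0039, 0.28 and -0.28 for all. In H3K27ac their changes were -0.06 (-0.25 to 0.13), 0.03 (-0.16 to 0.23), 0.18 (-0.01 to 0.38) and -0.02 (-0.23 to 0.18) from 30 m to 72 h, beside 0.40, -0.03, 0.27 and 0.27 for all.

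Promoter-promoter loops were counted for lists of housekeeping genes, beside 73.6% of all coding genes and 90.1% of those with any loop. All 35 splicing factor genes had one, as had 83 of 88 cytosolic ribosomal protein genes (915 loops), 76 of 78 mitochondrial ribosomal protein genes (655), 80 of 83 nuclear genes of oxidative phosphorylation (782) and 37 of 39 proteasome genes (372). Of the genes with any loop these were 97.4% to 100%. Olfactory receptor genes had them for 97 of 404 (24.0%), or 85.1% of those with any loop. Among the housekeeping lists the highest H3K27ac change at 30 m was 0.54 (0.46 to 0.62) in splicing factors, and that of oxidative phosphorylation was 0.45, beside 0.40 for all. At least 2-fold higher at that time were 41 of 159 loops of oxidative phosphorylation (25.8%), 35 of 139 of translation factors (25.2%), 15 of 72 of the proteasome (20.8%), 12 of 78 of splicing factors (15.4%), 17 of 128 of mitochondrial ribosomal genes (13.3%) and 25 of 225 of cytosolic ribosomal genes (11.1%). The share was 19.5% of all promoter-promoter loops and 10.7% of all loops, so that the lists lay on both sides of the former. Replication-dependent and other histone genes had 186 loops, 64 of them with both ends in the list. Their H3K27ac changes from 30 m to 72 h were 0.09 (-0.01 to 0.18), -0.13 (-0.23 to -0.03), -0.12 (-0.22 to -0.02) and 0.06 (-0.04 to 0.16). In H3K4me3 they were -0.13, 0.09, 0.15 and -0.11. Protocadherin genes had 81 of 107 loops within the list, keratins 24 of 60 and ZNF genes 1804 of 3979. HOX genes had -0.18 (-0.35 to -0.0019), -0.38 (-0.56 to -0.19), 0.012 (-0.16 to 0.19) and 0.08 (-0.10 to 0.26) in H3K27ac from 30 m to 72 h.

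The sequence before the start was compared among promoters with a promoter-promoter loop (14649), with other loops alone (1617) and with none (3628), as a description. The rule chose loops and not sequences. Median G and C content over 250 bases was 65.2%, 62.8% and 52.4%, and the observed over expected CpG ratio 0.81, 0.69 and 0.30. GGGCGG stood in 66.9%, 54.9% and 29.5% of promoters on either strand (59.1% of all 19894), and CCGGAAG in 14.7%, 5.81% and 3.31% (11.9% of all). CCGGAAG stood in 9.17% of promoters with 1 to 4 partners and in 23.0% of those with 20 or more. The ZNF143 motif stood in 4.09%, 1.48% and 0.496% (3.22% of all) and in 9.13% of promoters with 20 or more partners, or 6.63% without ZNF genes. TATAAA went the other way, with 6.58%, 13.0% and 18.4% (9.25% of all), and CCAAT was at 34.6%, 31.2% and 34.2% (34.3% of all). Of the others searched, the NRF1 motif stood in 1.86%, 0.68% and 0.331% (1.48% of all), that of YY1 in 0.403%, 0% and 0% (0.297% of all), that of CREB in 2.78%, 2.35% and 0.882% (2.40% of all), CACGTG (E-box) in 8.68%, 5.38% and 5.68% (7.87% of all) and TGTTTAC (forkhead) in 1.80%, 1.92% and 3.17% (2.06% of all). The full palindromic androgen response element stood in 0 of 19894 windows and the full CTCF motif in 3, which says only that these strict spellings were not in them. At a G and C content of 60 to 70%, CCGGAAG stood in 18.7%, 7.80% and 5.46%, the ZNF143 motif in 4.95%, 2.06% and 0.546% and TATAAA in 4.05%, 6.65% and 6.82%. GGGCGG stood there in 71.8%, 63.8% and 55.9%, and at 70 to 80% in 92.9%, 90.6% and 89.4%, so that its shares lay closer together within classes. CCAAT was at 35.8%, 33.0% and 32.3% at 60 to 70% and at 26.9%, 25.5% and 18.8% at 70 to 80%, and at 50 to 60% in 44.4% with promoter-promoter loops and 36.6% without any loop. Among ZNF genes with a promoter-promoter loop, the ZNF143 motif stood in 17.2% and CCGGAAG in 28.7%. Promoters with a loop higher in H3K4me3 and none higher in H3K27ac held CCGGAAG in 18.9% (of 8920), and those with a loop higher in H3K27ac in 9.76% (of 574).

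**Figure D5:**
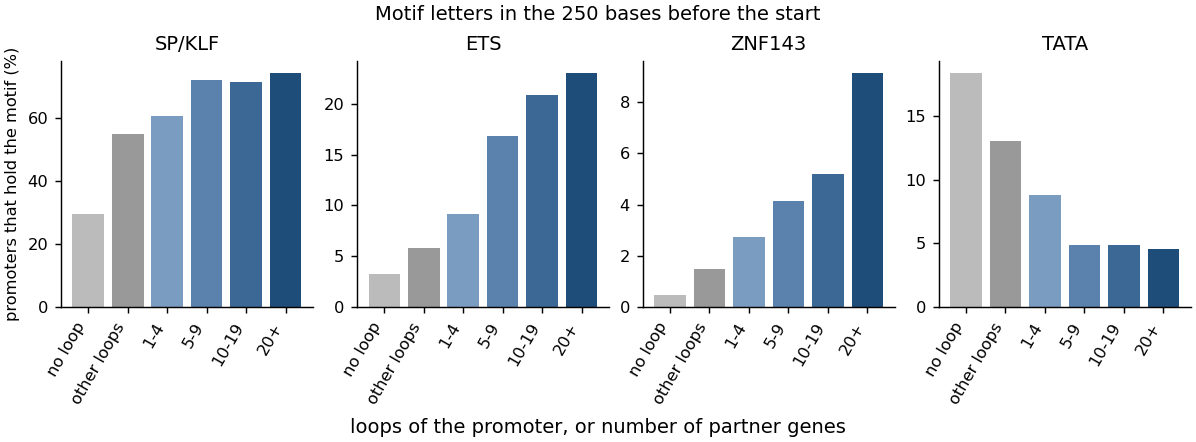
Share of promoters with the letters of a motif on either strand within 250 bases before the start (%, vertical axes from 0, scaled per panel) for promoters with no loop, with other loops alone and with 1 to 4, 5 to 9, 10 to 19 or 20 or more partner genes. ETS goes from 3.31% to 23.0% and ZNF143 from 0.496% to 9.13%, while TATA goes from 18.4% to 4.57%.

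CTCF is the factor at which many loops are anchored, usually at motifs that point toward each other. Its full motif stood in a 5 kb bin of 191 of 40320 promoter-promoter loops and in both bins of none. With a shorter spelling of the same motif, which may overlap the longer one, 1.28% of promoter-promoter loops held it in both bins. This compared with 0.585% of promoter-other and 0.347% of other-other loops. In 473 promoter-promoter loops each bin had motifs of 1 direction. Of these 27.5% (exact 95% interval 23.5 to 31.7) pointed toward each other and 20.5% apart. Among promoter-other loops these shares were 30.9% and 19.6% of 1313, and among other-other loops 37.9% (33.9 to 42.1) and 16.2% of 567.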

How the data were processed

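HiChIP of LNCaP cells was measured with 10 H3K27ac and 5 H3K4me3 samples. Per the labels and the submitters' processing notes, the authors trimmed reads with Trim Galore 0.5.0, mapped them to hg19 with HiC-Pro 3.1.0 and Bowtie2, called loops with FitHiChIP in 5000 bp bins on merged time points of each mark, and deposited a contact signal per loop that was TMM-scaled among the libraries of a mark. The 10 tables have 574817 rows each, for 505995 different loops. In every library each signal value divided by what 1 read pair is worth came out whole (100%, tolerance 0.001), which gave back the read pairs. Looped read pairs numbered 2475168 to 4308555 in the H3K27ac libraries and 2153262 to 10675614 in H3K4me3, or a median of 2 to 16 per promoter-promoter loop, so most single loops have wide counting intervals.

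The promoters of 19894 coding genes came from Gencode (canonical transcript). All 25 chromosomes compared had lengths that hold every loop. Log2 changes are ratios of mean contact with exact 95% intervals, which cover counting error only, since each mark and time has 1 value. Read pairs carry no molecular identifiers. Marks were compared by exact permutation over libraries, and single loops with limma 3.58.1 (R 4.3.3) on log2 values with a pseudocount of 1, for loops with at least 50 read pairs, with mark and time as terms, 4 residual degrees of freedom and Benjamini-Hochberg adjustment at 0.05. edgeR 4.0.16 on recovered read pairs, other filters, windows, length limits and scalings were alternatives. Other steps used Python 3.11.15 with pandas 2.3.3 and scipy 1.17.1, and the statistics were tested on simulated data. Loops named are those of highest contact, largest change, smallest adjusted p or most partners, by mark, and the strongest within each list. Some items chosen by these rules are not reported here. Motifs were searched on both strands, and promoters and loops of the same windows gave the shares for comparison. The members and lists were chosen with earlier results of these data known. No test of replicates was possible, as each mark and time has 1 value.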

Additional observations from a re-analysis of the deposited data

Results flagged for a closer look

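Changes from 0 m had opposite signs in the marks for promoter-promoter loops as a whole at 4 h and 72 h, and nominally at 30 m. Their mean contact changed by 0.40 on the log2 scale at 30 m in H3K27ac and by -0.0039 in H3K4me3. At 4 h the values were -0.026 and 0.28, and 72 h of DHT gave 0.27 and -0.28. The 30 m interval of H3K4me3 includes 0, and its sign turned from 20 kb on and without the strongest 1% of loops. Over all loops the 72 h values were 0.17 and -0.13. The differences between marks were not tested, as each mark has 1 library per time.

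Among the named loops, 6 had changes of opposite sign with intervals that exclude 0 and sizes of at least 0.5 in both marks and 1 in either. Loops were named in part for extreme contact or change, and the rule was not applied to the other loops. The count therefore has no background share. All 6 were higher in H3K27ac and lower in H3K4me3, the signs of promoter-promoter loops as a whole at 72 h. SFN-GPN2, with the gene of stratifin, was at 1.61 in H3K27ac and -1.09 in H3K4me3 at 72 h. RRP12-PGAM1 was at 1.73 and -0.87 at 72 h, where its contact went from 3.82 to 12.6 in H3K27ac and from 13.5 to 7.42 in H3K4me3. CDK4/MARCHF9-EEF1AKMT3/ENSG00000257921/METTL1 was at 1.25 and -0.89 at 72 h.

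RNF227-CNTROB/TRAPPC1 was at 1.35 and -1.37 at 30 m, at 1.41 and -0.62 at 16 h and at 1.23 and -1.04 at 72 h. ZNF28-ZNF468, a pair of zinc finger genes, was at 2.67 and -0.51 at 16 h and at 2.58 and -0.51 at 72 h. ZSWIM8-ENSG00000272916/NDST2 was at 2.69 and -0.71 at 72 h, with H3K27ac contacts of 1.47 at 0 m and 9.47 at 72 h. In these loops too the difference between marks was not tested. The share of read pairs on promoter-promoter loops held no library that stood apart from the other 4 of its mark.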

How the results depend on the processing

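Under the alternatives 277 values kept their direction and, where tested, their side of the threshold, or moved by less than their limit, while 92 moved further, 12 reversed and 1 no longer passed its threshold. Those that kept both could still differ in size, as the share difference of 7.35 points was 3.17 in the H3K4me3 set and the H3K27ac ratio to other-other loops of 0.37 was 0.23 without the strongest 1% of loops. Promoter windows of 1 kb left 14537 promoter-promoter loops and a log2 ratio to other-other loops in H3K4me3 of 1.95. With time points as pairs the share difference was 7.35 points (exact p = 0.0625). Leaving out 1 time point gave 6.60 to 7.99 points, log2 ratios to promoter-other loops of 0.55 to 0.61 (H3K27ac) and 0.68 to 0.76 (H3K4me3), and to other-other loops of 0.27 to 0.45 and 2.76 to 2.93.

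In order of time, log2 changes with equal totals were 0.31, -0.094, 0.023 and 0.10 in H3K27ac and -0.026, 0.056, -0.11 and -0.15 in H3K4me3. From 20 kb on they were 0.38 and -0.047 at the first times in H3K27ac and 0.0098, 0.31, 0.043 and -0.25 in H3K4me3. Without the strongest 1% of loops they were 0.37, -0.036, 0.24 and 0.26, and 0.0021, 0.29, 0.041 and -0.25. The median over loops was 0.12, 0, 0.0042 and 0 in H3K27ac and 0.20 (4 h) and -0.026 (72 h) in H3K4me3. The causes were not tested. Within classes of G and C content, chosen after seeing the data like the run without the mitochondrial loop and the shorter CTCF and ZNF143 motifs, promoter-promoter minus promoter-other loops gave 0.12 instead of 0.24 and -0.045 instead of 0.011 (H3K27ac, 30 m and 4 h), and 0.043 instead of -0.035, 0.14 instead of 0.083, 0.017 instead of -0.057 and -0.12 instead of -0.21 (H3K4me3 in order of time). Against other-other loops they gave 0.29 and -0.11 (H3K27ac, 30 m and 4 h) and 0.26, 0.013 and -0.19 (H3K4me3, 30 m, 16 h and 72 h).

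Past 1.5-fold, higher and lower promoter-promoter loops numbered 2604 and 308 of 6248, 616 and 559 of 4395, 2022 and 515 of 5165, and 1588 and 438 of 4439 in H3K27ac, when all loops gave 27.1% and 14.3%, 20.8% and 10.7%, 35.2% and 14.2%, and 31% and 15%. In H3K4me3 they were 981 and 1054 of 8080, 7435 and 1497 of 20670, 1705 and 1155 of 11131, and 455 and 2339 of 8324, beside 12.7% and 12.9%, 30.8% and 11%, 18.7% and 9.06%, and 8.56% and 21.5% of all loops. Past 2-fold with 50 read pairs they were 317 and 3 of 1787, 7 and 2 of 1053, 287 and 16 of 1381, and 177 and 11 of 1061 in H3K27ac (higher 17.7%, 0.665%, 20.8% and 16.7%, all loops 9.43% and 2.68%, 3.3% and 0.341%, 26.1% and 1.38%, and 19.9% and 2.26%), and 7 and 20 of 2537, 1044 and 55 of 9344, 56 and 22 of 3887, and 2 and 118 of 2532 in H3K4me3 (all loops 0.48% and 0.474%, 9.68% and 1.06%, 1.92% and 0.348%, and 0.111% and 2.83%). With equal totals they were 663 and 357 (16 h) and 248 lower (72 h) in H3K27ac, and 798 lower (4 h), 360 and 460 (16 h) and 464 lower (72 h) in H3K4me3, with the backgrounds given above.

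Between marks, loops higher in H3K27ac numbered 548 of 33456 promoter-promoter loops at 20 read pairs (1.64%, against 27.5% of all loops), 190 of 10416 at 100 (1.82%, against 29.9%), 696 of 40320 with no filter (1.73%, against 28.9%) and 560 of 18994 by edgeR (2.95%, against 31.4%). Those higher in H3K4me3 were 7212 at 100 (69.2%, against 44.1%) and 18056 with no filter (44.8%, against 25.9%). Without 1 time point they were 225 (without 30 m, 1.18%) to 444 (2.34%) in H3K27ac and 9963 to 11032 (52.5% to 58.1%) in H3K4me3, beside 26.1% to 27.6% and 34.4% to 37% of all loops. Without the H3K27ac library of 4 h the shared time effect called 1 promoter-promoter loop higher at 4 h (46 of all loops) and 1 lower at 16 h (of all loops 1 lower and 18 higher). Without the H3K4me3 library of 4 h it called 5 of all loops higher at 16 h and 1 at 72 h, with no promoter-promoter loop. Promoter-promoter calls were 0 to 1 over the left-out libraries. Pearson correlations of the marks over promoter-promoter loops with 200 read pairs were 0.47 (30 m, 66 loops), 0.31 (4 h, 28 loops, Spearman 0.0025), -0.033 (16 h, 55 loops) and 0.017 (72 h, 30 loops). Neighbours were 17.4% of pairs from 20 kb on and 23.8% in the H3K27ac set, where 26.0% were divergent. From 20 kb on, 2 list values of 16 h that lay near 0 turned sign. Mitochondrial ribosomal genes stood at 0.024 instead of -0.028 in H3K4me3, and HOX genes at -0.0081 instead of 0.012 in H3K27ac. In a 1 kb window the CCAAT share was 8.70 points lower with loops than without (-8.70). No paired analysis was possible because the tables hold no value per labelled replicate that could serve as a block, and pairing by time point is given above.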
